A study of Mus musculus with 1615 samples.

Results

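The contractile apparatus of smooth muscle and its regulators were described here as 34 genes of 46517 gene identifiers in the deposited table. The members were chosen by symbol, from what the proteins are known to do, and all 34 were found. They were read in 1615 cells from the colon of 11 mice, sorted singly into plates, each cell giving its own library by Smart-Seq2, which copies whole transcripts into cDNA. Cells with smooth muscle or pericyte identity came from 3 mice of the dual reporter line ACTA2GFP:CSPG4dsRED, which carries a green reporter named after smooth muscle actin and a red one named after the proteoglycan NG2. These 3 mice gave 1106 cells, 32.5% from the female 20GG79:1, 21.9% from the male 20GG79:6 and 45.7% from the female 20GG95:3, whose cells lay on 2 plates (36.8% and 63.2%). A further 10 fibroblast cells used here came from the males 19CB38:5 (line ACTA2GFP) and 19CB4:5 (line PDGFRbGFP), 5 from each. Blood endothelium-like and immune-like cells read for comparison also came from male mice of the lines PDGFRbGFP, PDGFRaH2bGFP and CSPG4dsRED, given with their values below. No mouse had a treatment in the labels, and ages were given as 8 to 30 weeks. The series text, in contrast, names only males and a lower upper age. The tissue label says colon, while the protocol text names heart. How the sort was gated is not given in the sources used here, so numbers of cells per class describe the sort and not the tissue.

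Smooth muscle contracts when calcium and calmodulin switch on myosin light chain kinase, which phosphorylates the regulatory light chain of a myosin built on a smooth muscle heavy chain. A phosphatase with a targeting subunit reverses this, and the inhibitor CPI-17 holds the phosphatase back. Thin filaments of actin carry tropomyosins, calponins, caldesmon and leiomodin, and they end in dense bodies and in dense plaques at the membrane, where filamin, vinculin, talin and LIM proteins join them. Many of these genes are known targets of serum response factor, which binds a 10-base element called the CArG box together with myocardin-related partners. In the gut wall the visceral muscle moves the contents, vascular muscle sets the calibre of vessels, and pericytes wrap capillaries.

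Classes were rebuilt by clustering on genes that excluded all 34 members, so that members could be compared between them. The markers used to cluster and name the classes did include the smooth muscle actins Acta2 and Actg2 and the muscle factor Myocd. The classes were thus set in part by genes close to the members, and differences in members are not independent of that choice. Visceral smooth muscle-like cells numbered 540, of which 95 formed a subtype high in Ano1, a chloride channel, and the rest a subtype high in F2r, the thrombin receptor. The F2r-high subtype came from 20GG79:1 (34.4%), 20GG79:6 (66 cells, 14.8%) and 20GG95:3 (50.8%), while the Ano1-high subtype came from 20GG95:3 (91 cells) and 20GG79:1 (4 cells). Vascular smooth muscle-like cells came from 20GG95:3 (96 cells) and 20GG79:1 (7 cells). Pericyte-like cells came from 20GG79:1 (59 cells), 20GG79:6 (14 cells) and 20GG95:3 (91 cells), and those of 20GG95:3 formed a cluster nearly apart from the others. Fibroblast-like cells, 13.4% of all cells, came mainly from 20GG79:1 (59.7%) and 20GG79:6 (67 cells). For brevity these are called visceral, vascular, pericyte and fibroblast cells below. Counts were summed over the cells of a mouse and class, and a mouse counted as 1 replicate where it gave at least 5 cells. Levels are given as CPM, counts scaled to a common total of gene counts with the spike-ins left out. Gene counts per cell ran from 45388 to 1046988. Where values of single mice follow each other, they stand in the order 20GG79:1, 20GG79:6, 20GG95:3, and for fibroblasts 20GG79:1, 20GG79:6, 19CB38:5, 19CB4:5.

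In RefSeq promoters of GRCm38.p6, from 250 bases before to 50 after a gene's start, 31 of the 34 members had an entry. Myh11, Tagln and Rock1 had no entry and were not searched. A CArG box, 10 bases that open with a pair of C, close with a pair of G and hold only A or T between them, was searched by its letters. The box reads as a box on both strands, so a match on 1 is a match on the other. It lay in the promoters of 6 of 31 members (19.4%), against 1.81% of all 27025 genes. The 6 were Myl9, Myl6, Cnn2, Vcl, Ldb3 and Srf, and that of Myl6 fell in an annotated exon. The stretches around the other boxes are shown because the box is the one regulatory element searched that several members share, with the boxes in capitals.
Myl9: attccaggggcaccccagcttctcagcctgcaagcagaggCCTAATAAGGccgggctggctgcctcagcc
Cnn2: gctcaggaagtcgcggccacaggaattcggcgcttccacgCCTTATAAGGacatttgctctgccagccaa
Vcl: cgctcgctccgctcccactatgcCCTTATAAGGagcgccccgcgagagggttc
Ldb3: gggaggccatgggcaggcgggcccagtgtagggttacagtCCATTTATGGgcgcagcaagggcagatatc
Srf: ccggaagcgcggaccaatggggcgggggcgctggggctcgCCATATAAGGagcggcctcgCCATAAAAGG
On the plus strand, the Myl9 stretch lies at chr2:156775263-156775332, that of Cnn2 at chr10:79988504-79988573 and that of Vcl at chr14:20929148-20929200. On the minus strand, the Ldb3 stretch lies at chr14:34588687-34588756 and that of Srf at chr17:46556215-46556284. The box of Cnn2 begins 56 bases before the gene's start, that of Ldb3 35 bases before the nearer of its 2 starts, and the 2 boxes of Srf 82 and 62 bases before. All 5 stretches lie upstream of the annotated exons. A match is a description of the letters and not a bound site.

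Taken as a sum, the 34 genes held 3.48% of the gene counts of visceral cells in 20GG79:1, 3.77% in 20GG79:6 and 4.45% in 20GG95:3. Vascular cells held 3.86% and 4.47% in 20GG79:1 and 20GG95:3. Pericytes held 1.58%, 2.46% and 2.0% in the 3 mice, and fibroblasts 0.894% and 1.01% in 20GG79:1 and 20GG79:6. Visceral and vascular muscle thus overlapped, every mouse's pericytes lay below every mouse's muscle, and every mouse's fibroblasts lay below all pericytes. The means were 3.90 ± 0.50% (SD, n = 3 mice) for visceral, 4.17 ± 0.44% (n = 2) for vascular, 2.02 ± 0.44% (n = 3) for pericyte and 0.752 ± 0.249% (n = 4) for fibroblast cells. Blood endothelium-like cells, which are not contractile, held 0.481 ± 0.0713% (n = 6 mice). Besides 20GG79:6 and 19CB4:5, these mice were another of line PDGFRbGFP, 18CB109:10 and 18CB39:3 (line PDGFRaH2bGFP) and 19CB27:3 (line CSPG4dsRED), all male. Gene by gene the order was less uniform. The highest mean level was in vascular cells for 16 members, in visceral cells for 13, in pericytes for 3 (Rock1, Rock2 and Cald1) and in fibroblasts for 2 (Tpm4 and Smtnl2). For 6 of the 16 and 6 of the 13, the mice of the highest class did not overlap with those of the next. The lowest mean was in fibroblasts for 24 members, and for 17 of these the mice stood apart from the next class. How many of all genes stand apart in this way was not counted, so these numbers describe the members and do not set them off from other genes.

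**Figure D1:**
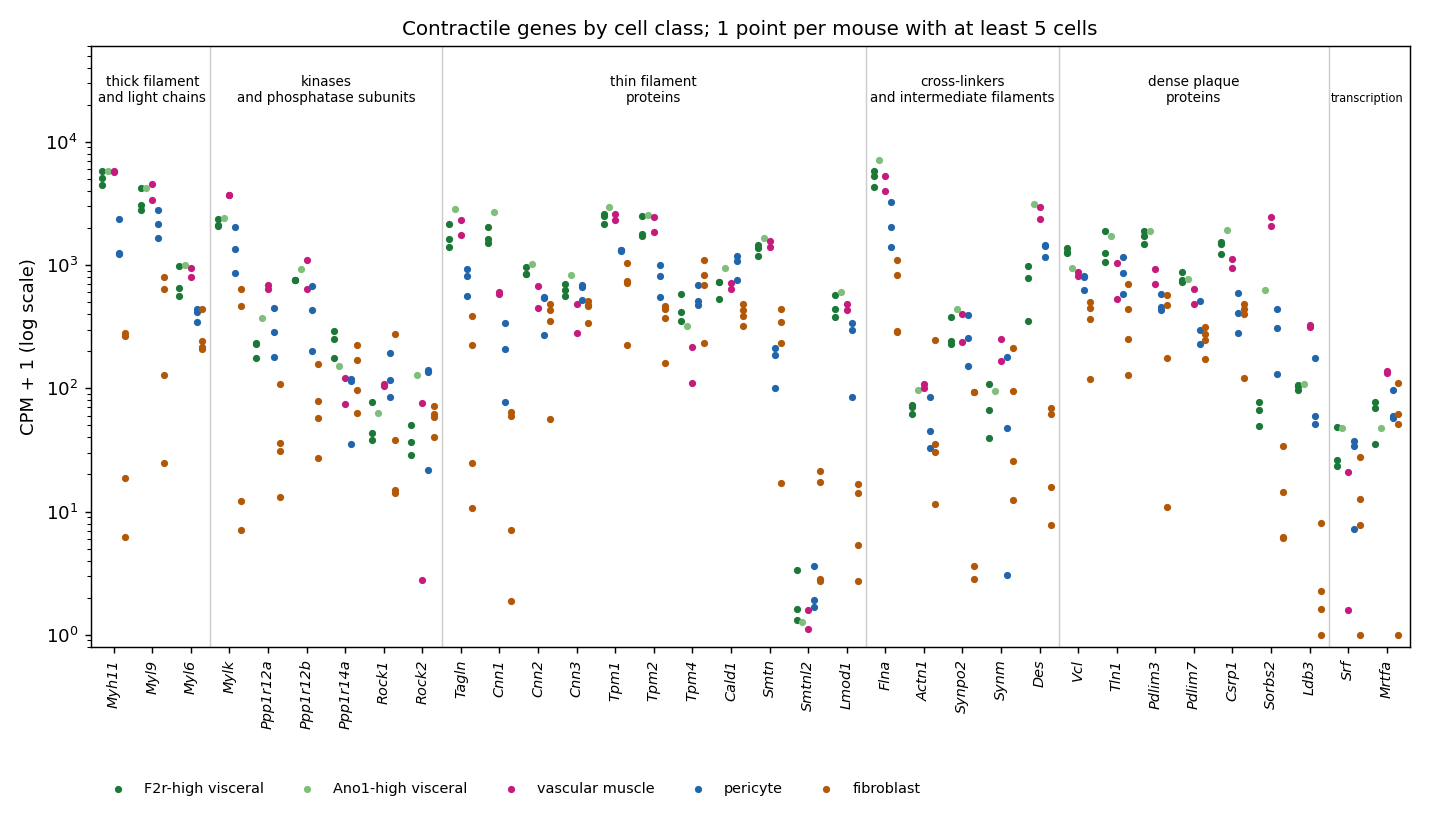
Level of each of the 34 members (CPM + 1, log axis) in each cell class, with 1 point per mouse that gave at least 5 cells of the class. Fibroblast points lie lowest for most members, Myh11 between 5.23 and 280.3 CPM against 4530 to 5755 in visceral cells, while Cnn3 spans only a 1.71-fold range of class means.

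Compared per kilobase of exon, which allows genes to be set side by side, the regulatory light chain Myl9 had the highest level of the members, 2898 CPM per kb in visceral, 3384 in vascular, 1897 in pericyte and 340.5 in fibroblast cells. Tagln, which codes for the actin-binding protein transgelin, reached 906 and 1027 CPM per kb in visceral and vascular cells. Levels between genes are compared nowhere else.

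Of the thick filament, the heavy chain fell in both pericytes and fibroblasts, and the light chains passed in fibroblasts alone. Myh11, the smooth muscle myosin heavy chain on chromosome 16 from 14194535 to 14291372, stood at 4530, 5070 and 5755 CPM in visceral cells and at 5640 and 5843 CPM in vascular cells. Pericytes had 1264, 2349 and 1230 CPM and fibroblasts 280.3, 265.5, 17.8 and 5.23 CPM, the last 2 in the mice with 5 cells. The muscle classes overlapped, and the pericytes of all 3 mice lay below them and above all fibroblasts. The log2 fold change of pericytes against vascular cells was -2.42 ± 0.28 (SE, edgeR adjusted p = 2.08e-05), that against visceral cells -1.88 ± 0.31 (adjusted p = 0.0249) and that of fibroblasts against visceral cells -4.13 ± 0.19 (adjusted p = 0.000873). Myl9, the regulatory light chain, stood at 2773, 3093 and 4238 CPM in visceral, 3354 and 4510 in vascular, 1657, 2156 and 2800 in pericyte and 637.9, 793.8, 127.4 and 23.6 in fibroblast cells. Among the 4 tested comparisons it passed only in fibroblasts, lower by 2.04 ± 0.20 on the log2 scale (adjusted p = 0.00596). In pericytes it was lower without passing, -1.07 ± 0.27 against vascular (edgeR adjusted p = 0.0583) and -0.77 ± 0.22 against visceral cells (adjusted p = 0.168). The CPM of Myl9 fell with the depth of a cell, as described below. Myl6, the essential light chain found in most cells, was flatter, with 565.8 to 987.2 CPM in visceral and 205.8 to 436.8 CPM in fibroblast cells, and it fell by 1.45 ± 0.26 there (adjusted p = 0.0401).

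Among the kinases and phosphatase subunits, vascular cells had the most Mylk and Ppp1r12a. Mylk, the light chain kinase, stood at 3729 and 3682 CPM in vascular cells against 2061, 2097 and 2369 CPM in visceral cells, without overlap. The test of that difference did not pass. Pericytes had 1352, 2047 and 868.2 CPM of Mylk, lower than vascular cells by 1.99 ± 0.31 (log2, SE, edgeR adjusted p = 0.000969). Fibroblasts of 20GG79:1 and 20GG79:6 had 461.3 and 642.1 CPM, and those of the other lines 11.1 and 6.11 CPM, and the fold against visceral cells was -1.93 ± 0.24 (adjusted p = 0.0109). Ppp1r12a, the myosin phosphatase targeting subunit, stood at 634.1 and 692.8 CPM in vascular and at 240.5, 173.9 and 269.3 CPM in visceral cells, a log2 fold change of -1.37 ± 0.37 for visceral against vascular cells (adjusted p = 0.0264). It was at 106.4 CPM or less in fibroblasts, -2.65 ± 0.38 against visceral cells (adjusted p = 0.0176). Its relative Ppp1r12b did not part the muscle classes, at 759.8 to 802.9 CPM in visceral and 643.6 and 1091 CPM in vascular cells. It fell in pericytes against vascular cells (-1.73 ± 0.41, adjusted p = 0.0338), where the plates of 20GG95:3 had 157.5 against 1030 CPM and 613.6 against 1165 CPM. It also fell in fibroblasts against visceral cells (-2.77 ± 0.32, adjusted p = 0.00922).

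The other regulators of the phosphatase passed in no tested comparison. Ppp1r14a, which codes for the inhibitor CPI-17, stood at 171.3, 248.9 and 252.3 CPM in visceral, 73.8 and 120.7 in vascular, 34.2, 118.7 and 112.8 in pericyte and 62.3 to 222.5 CPM in fibroblast cells. Within 20GG95:3 it differed between plates, 69 against 496.9 CPM in the F2r-high subtype. Rock1 and Rock2 stood highest in pericytes by their means, with 83.5, 194.2 and 114.97 CPM of Rock1 and 140.8, 20.8 and 133.8 CPM of Rock2, and overlapped with other classes.

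Of the thin filament proteins, Cnn1 showed the clearest order. Cnn1, calponin of smooth muscle, which inhibits actomyosin, lies on chromosome 9 from 22099216 to 22109630. It stood at 1650, 1515 and 2224 CPM in visceral, 582.3 and 601.0 in vascular, 75.8, 341.03 and 207.3 in pericyte and 58.7, 62.8, 6.15 and 0.872 CPM in fibroblast cells. No 2 neighbouring classes in that order overlapped. Visceral cells were higher than vascular by 1.71 ± 0.29 (log2, SE, edgeR adjusted p = 0.000179), pericytes were lower than vascular cells by 2.45 on the log2 scale (-2.45 ± 0.49, adjusted p = 0.00914) and lower than visceral cells (-3.50 ± 0.53, adjusted p = 0.0189), and fibroblasts were lower than visceral cells (-4.70 ± 0.27, adjusted p = 0.00154). The relatives of Cnn1 were flatter. Cnn2 stood at 842.5 to 982.1 CPM in visceral, 443.6 and 679.0 in vascular and 268.4 to 548.9 CPM in pericyte cells, and Cnn3 at 560.5 to 740.9 CPM in visceral and 278.1 and 482.2 CPM in vascular cells. Neither passed in any tested comparison, and 17.7% of the exon bases of Cnn3 are shared with another annotated gene.

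Tagln followed the thick filament. It stood at 1411, 1639 and 2353 CPM in visceral, 1764 and 2317 in vascular, 560.8, 816.2 and 920.8 in pericyte and 224.7, 388.5, 24.0 and 9.60 CPM in fibroblast cells. Pericytes were lower than vascular (-1.71 ± 0.33, edgeR adjusted p = 0.00658) and visceral cells (-1.38 ± 0.27, adjusted p = 0.048), and fibroblasts lower than visceral cells (-2.36 ± 0.27, adjusted p = 0.00937). Of its exon bases 67.9% lie under genes of the opposite strand, so its counts are uncertain. Smtn, which codes for smoothelin, had its lowest mean in pericytes, as did Ppp1r14a and Actn1. It stood at 1185, 1450 and 1449 CPM in visceral, 1397 and 1559 in vascular, 186.8, 99.1 and 212.4 in pericyte and 343.1, 441.7, 16 and 232.9 CPM in fibroblast cells. The fibroblasts of 19CB38:5, with 5 cells, lay below all pericytes, and those of the other 3 mice above them. Pericytes fell below vascular (-3.10 ± 0.39, adjusted p = 9.59e-05) and visceral cells (-3.25 ± 0.31, adjusted p = 0.00258). Fibroblasts were lower than visceral cells by less, -1.75 ± 0.23 (adjusted p = 0.012), and pericytes were not tested against fibroblasts. Shared exon bases make up 16.3% of Smtn.

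The tropomyosins did not move as 1 group. Tpm1 stood at 2611, 2168 and 2636 CPM in visceral, 2573 and 2331 in vascular, 1314, 1308 and 1330 in pericyte and 739.4, 719.6, 1046 and 225.1 CPM in fibroblast cells. Tpm2 stood at 1728, 1788 and 2510 CPM in visceral, 1840 and 2435 in vascular, 544.8, 1007 and 807.0 in pericyte and 159.6 to 466.97 CPM in fibroblast cells. Tpm4, which non-muscle cells also use, ran the other way, with 581.1, 348.95 and 390.1 CPM in visceral, 108.96 and 217.1 in vascular, 476.2, 508.7 and 693.1 in pericyte and 825.1, 690.4, 1088 and 232.9 CPM in fibroblast cells. In Tpm4 the vascular mice were the lowest and lay apart from all other classes. Fibroblasts were lower than visceral cells in Tpm1 (-1.70 ± 0.21, edgeR adjusted p = 0.0102) and Tpm2 (-2.12 ± 0.22, adjusted p = 0.00666), pericytes lower than vascular cells in Tpm2 (-1.89 ± 0.33, adjusted p = 0.00273), and visceral cells higher than vascular in Tpm4 (1.63 ± 0.47, adjusted p = 0.0452).

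Lmod1, leiomodin, which nucleates actin filaments in muscle, stood at 384.7, 435.5 and 582.9 CPM in visceral, 430.5 and 483.97 in vascular, 83.7, 296.3 and 335.3 in pericyte and at 15.8 CPM or less in fibroblast cells. Its log2 fold change of fibroblasts against visceral cells was -4.82 ± 0.35 (edgeR adjusted p = 0.00283). Cald1, caldesmon, was highest in pericytes by its mean, at 759.9, 1193 and 1077 CPM against 743.8, 531.0 and 795.3 CPM in visceral cells, and passed in no tested comparison. Smtnl2, a smoothelin-like gene, stood below 3 CPM in all muscle and pericyte sums and at 16.3 and 20.3 CPM in the fibroblasts of 20GG79:1 and 20GG79:6. It also passed in no tested comparison and was too low to be tested between pericytes and vascular cells.

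Among cross-linkers and intermediate filaments, filamin and desmin had different orders across the classes. Flna, filamin A, stood at 4332, 5813 and 5810 CPM in visceral, 3988 and 5261 in vascular, 1400, 3237 and 2044 in pericyte and 830.1, 1095, 291.6 and 283.5 CPM in fibroblast cells. Pericytes were lower than vascular (-1.65 ± 0.27, edgeR adjusted p = 0.00163) and visceral cells (-1.48 ± 0.28, adjusted p = 0.0424), and fibroblasts lower than visceral cells (-2.39 ± 0.17, adjusted p = 0.00283). Des, which codes for the muscle intermediate filament desmin, lies on chromosome 1 from 75360329 to 75368579. It stood at 396.8, 984.5 and 1448 CPM in visceral, 2377 and 2985 in vascular, 1462, 1167 and 1432 in pericyte and 67.8, 61.4, 6.77 and 14.8 CPM in fibroblast cells. Vascular mice lay above all others, and pericytes overlapped with visceral cells. Visceral cells were lower than vascular by -1.80 ± 0.31 (adjusted p = 0.000523) and fibroblasts lower than visceral by -3.27 ± 0.39 (adjusted p = 0.00979), while pericytes did not pass against either muscle class.

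Synm, a large intermediate filament protein that pairs with desmin, stood at 250.1 and 165.6 CPM in vascular and at 46.8, 177.01 and 2.04 CPM in pericyte cells. The fold of -4.54 ± 1.01 (edgeR adjusted p = 0.0259) came from 20GG79:1 and 20GG95:3, the mice with both classes. It was -1.93 in a fit over 5 classes and -0.70 in that fit without 20GG95:3 (adjusted p = 0.751 and 0.877), and the adjusted p ran from 8.81e-05 to 0.984 over 13 alternatives. Synpo2, a dense body protein, stood at 239.03 to 378.4 CPM in visceral and at 92.8 CPM or less in fibroblast cells (-1.70 ± 0.32, adjusted p = 0.0491). Actn1, the non-muscle form of alpha-actinin, stood at 61.3 to 77.2 CPM in visceral and 107.2 and 100.03 CPM in vascular cells and passed in no tested comparison.

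Sorbs2 showed the largest difference of the members between the muscle classes, and it is one of the proteins of dense plaques. Sorbs2 codes for ArgBP2, a scaffold that binds actin and vinculin, and lies on chromosome 8 from 45507788 to 45827906. Vascular cells had 2477 and 2066 CPM, pericytes 308.02, 436.2 and 129.7, visceral cells 70.2, 65.8 and 234.4, and fibroblasts 32.8, 5.13, 13.5 and 5.23 CPM. The log2 fold change was -4.13 ± 0.43 for visceral against vascular cells (edgeR adjusted p = 1.43e-05) and -3.71 ± 0.40 for pericytes against vascular cells (adjusted p = 1.01e-05). Ldb3, a PDZ and LIM protein of muscle also called ZASP or cypher, was likewise highest in vascular cells, with 328.1 and 311.95 CPM in vascular, 100.6, 95.6 and 105.3 in visceral, 50.5, 173.7 and 59 in pericyte and 7.01 CPM or less in fibroblast cells. Visceral cells were lower than vascular (-1.63 ± 0.47, adjusted p = 0.0444), pericytes lower than vascular (-2.76 ± 0.57, adjusted p = 0.0111) and fibroblasts lower than visceral cells (-5.01 ± 0.87, adjusted p = 0.0403). In 1 fibroblast mouse with 5 cells Ldb3 had a count of 0.

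The remaining plaque genes were highest in visceral cells. Pdlim3, an actinin-binding PDZ and LIM protein, stood at 1727, 1482 and 1892 CPM in visceral, 705.5 and 920.6 in vascular, 429.8, 579.1 and 453.2 in pericyte and 9.84 to 575.7 CPM in fibroblast cells. It was higher in visceral than in vascular cells (1.17 ± 0.29, edgeR adjusted p = 0.0114) and lower than visceral in pericytes (-1.96 ± 0.31, adjusted p = 0.0227) and fibroblasts (-1.62 ± 0.25, adjusted p = 0.0255). Csrp1, a cysteine-rich LIM protein, stood at 1545, 1226 and 1609 CPM in visceral, 1126 and 937.1 in vascular and 280.01, 587.5 and 404.8 CPM in pericyte cells. It fell in pericytes against vascular cells (-1.82 ± 0.40, adjusted p = 0.0211) and in fibroblasts against visceral cells (-1.70 ± 0.25, adjusted p = 0.022).

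Vcl, vinculin, stood at 1278, 1364 and 1162 CPM in visceral and 809.1 and 871.7 CPM in vascular cells, without overlap, and at 118.7 to 504.2 CPM in fibroblasts (-1.69 ± 0.23 against visceral cells, edgeR adjusted p = 0.0152). A share of 25.5% of its exon bases lies under another gene. Tln1, talin, and Pdlim7 also fell in fibroblasts against visceral cells, -1.36 ± 0.21 (edgeR adjusted p = 0.0234) and -1.52 ± 0.25 (adjusted p = 0.0282). Neither passed in another tested comparison.

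Srf and Mrtfa, a transcription factor and its actin-responsive partner, were low and passed in no tested comparison. Srf stood at 48, 22.4 and 31.4 CPM in visceral, 0.595 and 20.1 in vascular, 6.22, 33.2 and 36.5 in pericyte and 0 to 26.6 CPM in fibroblast cells. Mrtfa stood at 132.8 and 137.2 CPM in vascular cells, above the 33.6, 68.4 and 67.7 CPM of visceral cells.

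Counted over the members, visceral against vascular cells gave 3 higher and 4 lower of 34 tested, where 1.97% and 1.67% of all tested genes passed in those directions. The median log2 fold change of the members was 0.02, against 0.48 for all genes tested. Pericytes against vascular cells gave 0 higher and 12 lower of 33 tested, with 0.452% and 0.809% of all genes passing, and a median of -1.31 against 0.32. At an unadjusted p under 0.05, 2 members were higher and 20 lower there, and DESeq2 called 0 higher and 7 lower. Pericytes against visceral cells gave 0 higher and 6 lower of 34, with 0.771% and 0.886% of all genes passing, and medians of -0.92 and -0.38. Unadjusted, 0 were higher and 19 lower, and DESeq2 called 0 and 2. Fibroblasts against visceral cells gave 0 higher and 21 lower of 34, with 0.889% and 0.995% of all genes passing, and medians of -1.69 and 0.03. Unadjusted, 2 were higher and 25 lower, and DESeq2 called 1 higher and 24 lower. These comparisons share cells, since visceral and vascular cells each serve in more than 1 of them. With DESeq2 size factors in edgeR the median of all genes moved from 0.48 to 0.35 between visceral and vascular cells, and from -0.38 to -0.14 between pericytes and visceral cells.

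**Figure D2:**
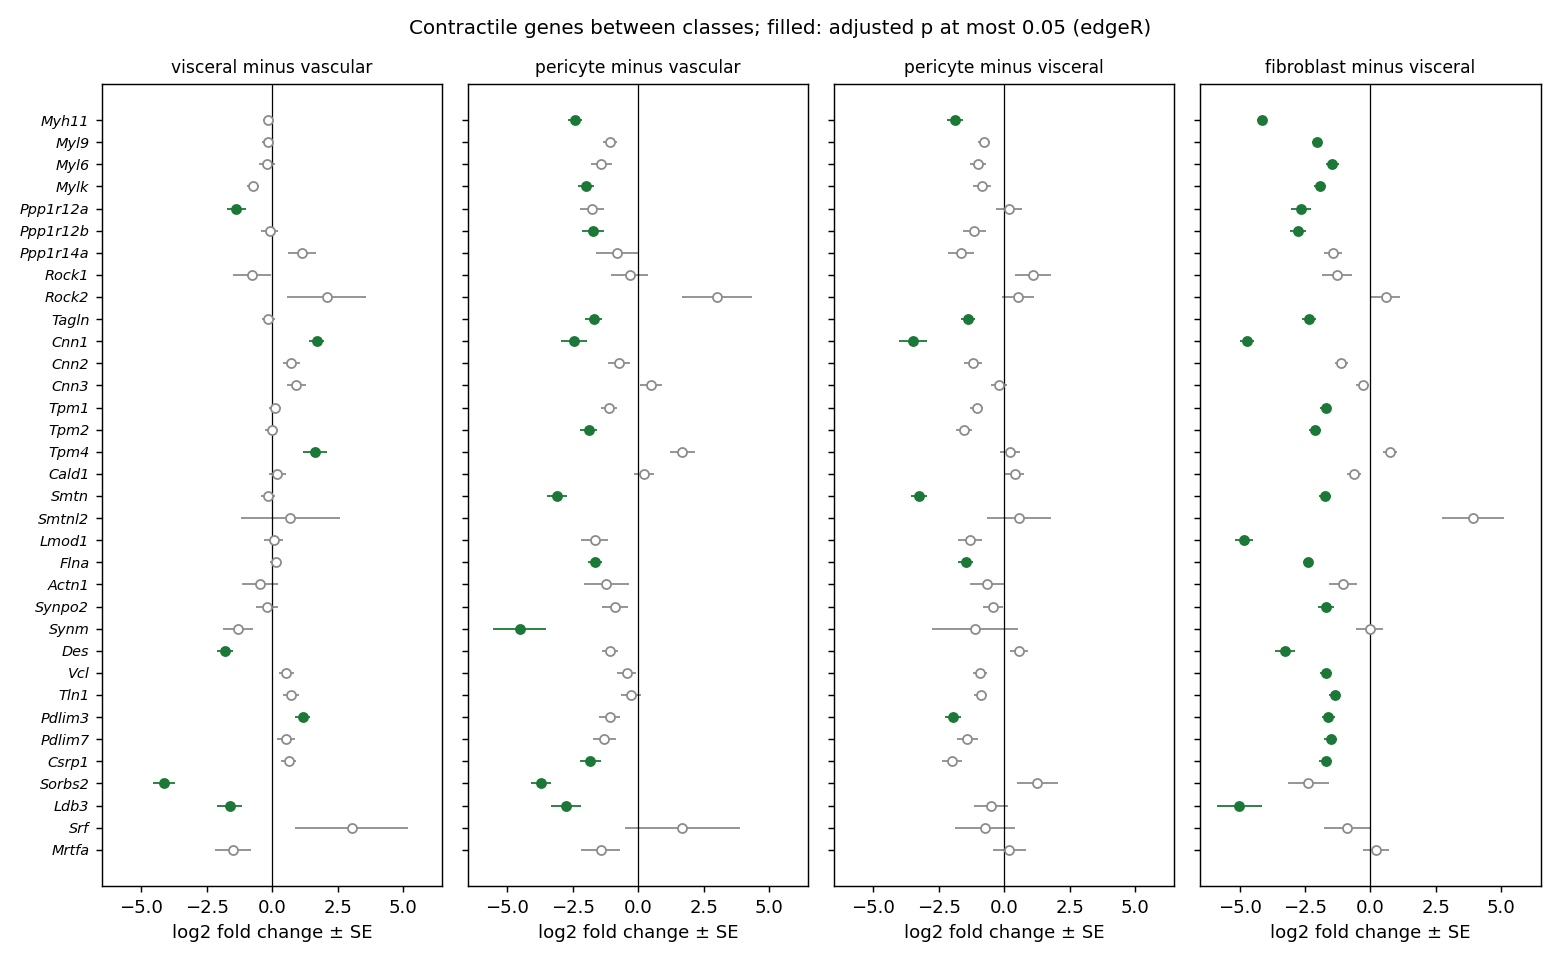
Log2 fold change ± SE of each member in the 4 tested comparisons, ordered by role, with filled points for an edgeR adjusted p of at most 0.05. Filled points lie on both sides of 0 between visceral and vascular cells (3 higher, 4 lower) and only on the lower side for pericytes and fibroblasts.

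Both comparisons with vascular cells rest on 2 mice, with 7 vascular cells in 20GG79:1. Leaving out either mouse leaves 1 vascular sum, so this was done in a fit over 5 classes that keeps the mouse as a block and assumes that the lone sum varies like the others. With all mice that fit called 2 members between visceral and vascular cells and 3 between pericytes and vascular cells. Without 20GG95:3 it called 0 (6 higher and 3 lower at an unadjusted p under 0.05, edgeR) and 1, and without 20GG79:1 it called 3 and 8. Without 20GG95:3 the log2 fold changes of pericytes against vascular cells were -0.58 for Ppp1r12b, -1.27 for Mylk, -1.75 for Myh11 and -2.33 for Sorbs2. Without 20GG79:1 they were -1.43 for Cnn1 and -1.21 for Csrp1, and those of visceral against vascular cells were 0.78 for Pdlim3 and 0.75 for Tpm4. None of these 8 passed. With the mouse not kept as a block 0 passed in both, where 3 higher and 6 lower, and 1 higher and 20 lower, had an unadjusted p under 0.05. Between visceral and vascular cells DESeq2 called 1 member, Sorbs2, and across 14 alternatives the highest adjusted p of edgeR or DESeq2 was 0.0621 for Sorbs2, 0.433 for Cnn1 and 0.381 for Des. Between fibroblasts and visceral cells 5 members passed in that fit without 20GG79:6 and 14 without 20GG79:1. Cnn1, Flna, Myh11, Myl9 and Tagln passed there in every alternative run, as did Cnn1 and Smtn between pericytes and visceral cells. Vascular cells also stood apart in a list of 20 stress and dissociation genes, whose summed level was 32148 ± 3796 CPM (SD, n = 2 mice, 29464 and 34832) against 9842 ± 696.2 in visceral (n = 3), 9106 ± 3345 in pericyte (n = 3) and 8836 ± 6359 CPM in fibroblast cells (n = 4). Its part in the differences from vascular cells was not tested.

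The 2 visceral subtypes were compared within 20GG95:3, where both came from the same animal, so there is no replicate and no test. Des stood at 3110 CPM in Ano1-high cells and at 353.4, 984.5 and 781.7 CPM in the F2r-high cells of the 3 mice. Sorbs2 stood at 629.5 against 48.5, 65.8 and 76 CPM, and Rock2 at 127.8 against 49.5, 27.8 and 35.8 CPM. Of 33 members, these 3 were at least 2-fold higher in Ano1-high cells of that mouse, by 1.92, 2.96 and 1.74 on the log2 scale, where 13.7% of all genes were. Ppp1r14a was at least 2-fold lower (-1.04), at 149.9 against 293.4 CPM, where 17.8% of all genes were. It also differed by plate, as given above. Rock2 stood at 56.5 against 30.4 CPM on the smaller plate and at 197.9 against 40.8 CPM on the larger, and without the larger plate it was under 2-fold (0.80). The median over members was 0.17, against -0.08 for all genes. In Sorbs2 the Ano1-high cells lay between the F2r-high and the vascular cells, and in Des just above the vascular ones. Myh11, at 5775 CPM, lay next to the 5747 CPM of the F2r-high cells of the same mouse. In the fit over all 5 classes, where the lone Ano1-high sum was assumed to vary like the others, 0 of 34 members passed with edgeR, 2 were higher at an unadjusted p under 0.05, and 0 of 20430 genes passed. Markers of another class were held by 20 of 95 Ano1-high cells, against 5.17% of F2r-high cells.

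Per cell, the summed share of the members showed how far the classes ran into each other. F2r-high cells had medians of 3.54%, 3.88% and 4.29% in 20GG79:1, 20GG79:6 and 20GG95:3, Ano1-high cells 5.07% and vascular cells 4.21% and 4.40%. Pericytes ran from 0.326% to 4.73% in 20GG79:1, with a median of 1.26%, and from 0.307% to 5.06% in 20GG95:3, with a median of 1.66%. Single pericytes thus reached the level of muscle while most did not. At or above the lowest visceral cell of their mouse lay 22 of 59 pericytes (37.3%), 12 of 14 (85.7%) and 41 of 91 (45.1%) in the 3 mice. For fibroblasts it was 7.75% and 31.3% in 20GG79:1 and 20GG79:6, and for vascular cells it was 7 of 7 and 96 of 96. This mark rests on a single cell per mouse. At or above the lower quartile of visceral cells lay 6 of 59, 4 of 14 and 8 of 91 pericytes, 1 fibroblast of 20GG79:1 and 0 of 20GG79:6, and 5 of 7 and 66 of 96 vascular cells. Markers of another class were held by 8.54% of pericytes and 9.72% of fibroblasts. Their part in the spread was not tested.

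**Figure D3:**
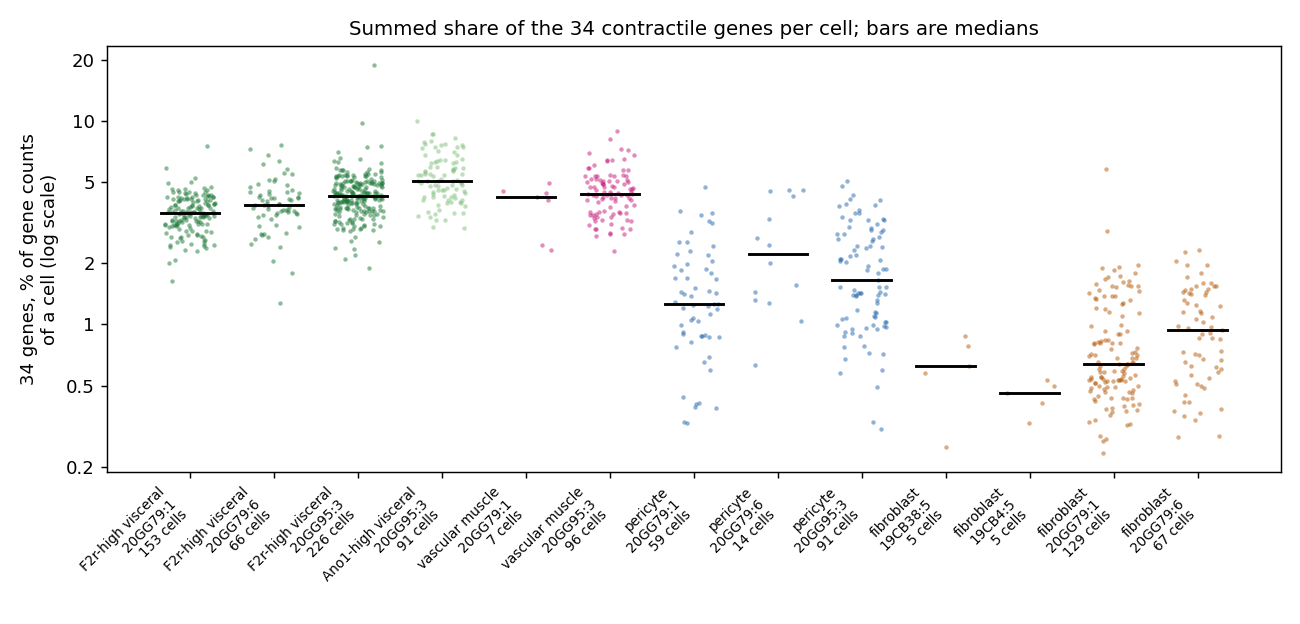
Summed share of the 34 members in the gene counts of each cell (log axis, 1 point per cell), by class and mouse, with the median as a bar. Pericytes of 20GG95:3 spread from 0.307% to 5.06%, across the gap between the fibroblast and muscle medians.

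Myh11 showed this spread in a single gene. In pericytes it had cell medians of 272.1, 1400 and 465.3 CPM in the 3 mice, while the highest cells reached 9094, 10636 and 10689 CPM, and the median of visceral cells lay at 4440, 5047 and 5428 CPM. Sorbs2 was also uneven in visceral cells of 20GG95:3, with a median of 7.10 CPM and a highest cell of 3730 CPM, and its vascular median there was 1747 CPM. These visceral cells pool both subtypes. On the smaller and the larger plate, Sorbs2 stood at 81.1 and 71.4 CPM in F2r-high and at 688.1 and 571.9 CPM in Ano1-high cells. The part of the subtypes in this unevenness was not tested. Across the pericytes of a mouse the member share rose and fell with Acta2, smooth muscle actin (Spearman's rank correlation of 0.76 across 59 cells of 20GG79:1 and 0.79 across 91 cells of 20GG95:3). With the pericyte genes Rgs5 (0.03 and -0.32) and Kcnj8 (-0.41 and -0.24) and with depth (0.13 and -0.01) it was weak or negative, and with Notch3, a receptor of mural cells, it was 0.37 and 0.14. Muscle markers differed between the mice. The correlation was 0.18 and 0.67 with Actg2 and -0.21 and 0.37 with Hhip, both markers of visceral muscle here. With Pln, a marker of vascular muscle here, it was 0.39 and -0.29. Across fibroblasts the rank correlation with Acta2 was 0.77 in 20GG79:1 and 0.84 across 67 cells of 20GG79:6, and with Dcn, a matrix gene of fibroblasts, -0.51 and -0.57. With Pdgfra, a receptor that also marks fibroblasts, it was positive, 0.34 and 0.38. With Actg2 it was 0.38 and 0.71, and with Hhip 0.19 and 0.58. These values describe cells that share a library plate and a mouse and carry no test.

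Fibroblasts were not uniform either. Their cells fell into 2 main clusters, 1 led by Cybrd1, Wif1 and Fam180a and 1 led by Wnt2, Pi16 and Cxcl13. In the first, Mylk stood at 955.7 CPM in 20GG79:1 (42 cells) and 670.8 CPM in 20GG79:6 (63 cells), against 187.3 CPM in the second (87 cells of 20GG79:1). Myl9 stood at 991.4 and 821.4 CPM against 442.04 CPM. Within 20GG79:1, 28 members had more CPM in the first cluster and 6 had less. Those 6 were Cnn1 (28.96 against 75.1 CPM), Des (15.2 against 96.99), Synm (40.6 against 123.3), Lmod1 (8.17 against 15.9), Rock1 (22.4 against 45.3) and Srf (4.90 against 15.5). How many of all genes had more CPM in the first cluster was not counted, so the 28 members are not set off from other genes. The clusters come from the same cells as these values, so the difference is a description.

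The plate of 20GG79:6 held cells of other kinds beside muscle cells, and these differed among themselves in the members. There, Myh11 stood at 5070 CPM in F2r-high cells, 2349 in pericytes and 265.5 in fibroblasts. It stood at 92.1 CPM in 32 blood endothelium-like, 295.9 in 22 glia-like and 1899 CPM in 30 immune-like cells, so fibroblasts lay above the first and below the others. The cell median of Myh11 was 71.4 CPM in fibroblasts, 35.6 in blood endothelium, 60.3 in glia and 712.3 in immune cells. That of Myl9 was 787 CPM in fibroblasts, 55.8 in blood endothelium, 605.2 in glia and 1644 in immune cells. That of Mylk was 530.4, 23.6, 32.7 and 1249 CPM in the same order. In this mouse immune-like cells thus had more of these 3 genes than fibroblasts, and blood endothelium less. The immune-like cells were also deeper, with a median of 394492 gene counts against 201716 in fibroblasts. Their summed member share was 1.82%, against 0.237% in the immune-like cells of 19CB27:3. Whether their wells also held muscle RNA from another cell was not tested. For Cnn1 the medians were 19.6, 9.47, 6.94 and 14.3 CPM, for Lmod1 2.01, 2.30, 0.777 and 21.98 CPM, and for Pdlim3 539, 16.6, 19.8 and 172.9 CPM. Fibroblast CPM was at least 2 times that of blood endothelium for 16 of the 34 members, that of glia for 14 and that of immune cells for 3. Pericyte CPM was at least 2 times that of blood endothelium for 22. The shares of all genes past 2-fold between these sums were not computed, so the counts do not set the members off from other genes. In 20GG79:6 a read of Myh11 was found in 100% of fibroblasts and 96.9% of blood endothelium-like cells. Pooled over all mice, it was found in 96.3% of fibroblasts and 41.3% of blood endothelium-like cells, at median depths of 276341 and 237326 gene counts. Thinned to 45000 gene counts per cell, the pooled shares were 87% and 19.6%. The mice and lines differ between these classes, so the pooled shares mix class with mouse and line.

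**Figure D4:**
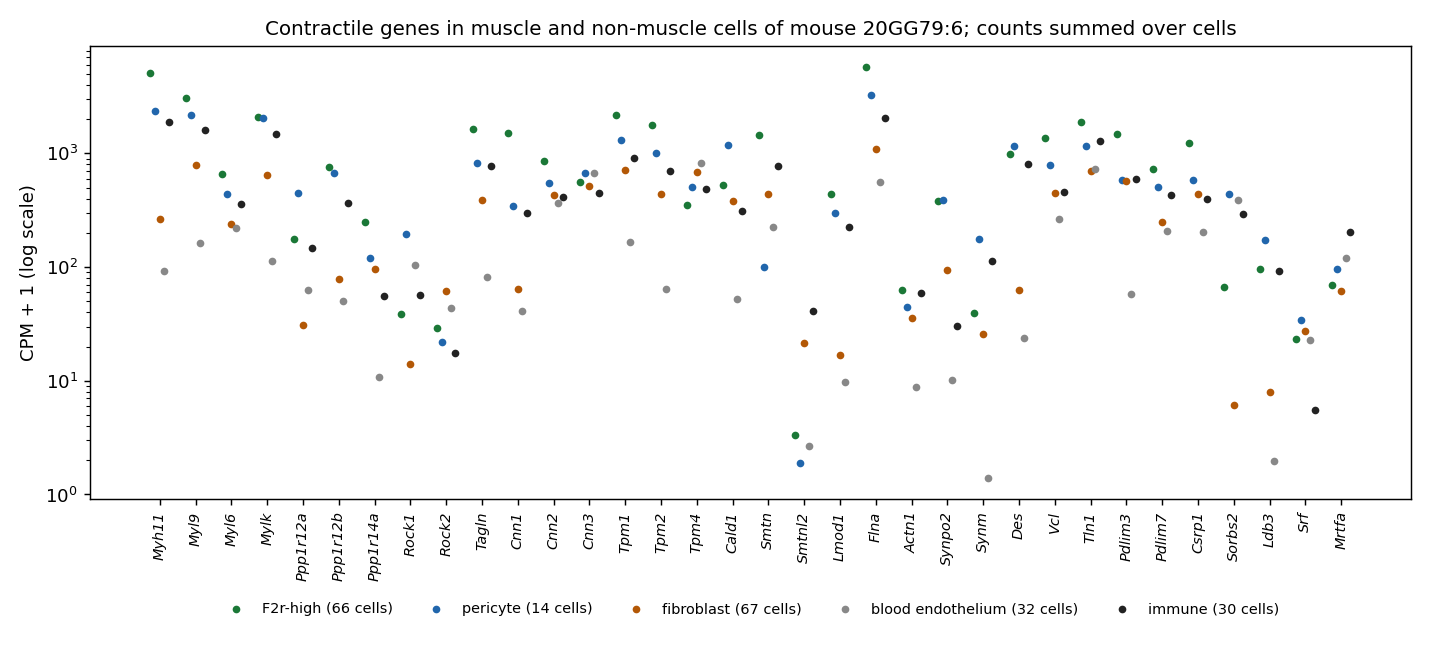
Level of each member (CPM + 1, log axis) in the cell classes of mouse 20GG79:6, with counts summed over the cells of a class. Fibroblast and blood endothelium points lie close for Lmod1 and apart for Myl9 and Mylk. Pericytes reach at least 2 times the endothelial CPM in 22 members, with no share over all genes computed.

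The CPM of Myl9 fell with the depth of a cell in visceral muscle. Among genes with at least 200 exon bases, no gene in any of the 1615 cells exceeded 2.012 counts per exon base, and only 72 of 32351 genes reached 1 in any cell. Myl9 came closest of the members, with a highest count of 1462 in a cell, 1.30 per base of its transcript of 1128 bases, and it was the only member to reach 1. A further measure is CPM against depth within a class. In F2r-high cells the rank correlation of Myl9 CPM with gene counts per cell was -0.63, -0.70 and -0.65 in 20GG79:1, 20GG79:6 and 20GG95:3. Between the shallowest and the deepest 51, 22 and 75 cells of these mice its CPM went from 3408 to 2480, from 4876 to 2287 and from 5928 to 3418. Myl6 (-0.16, -0.49 and -0.45), Tagln (-0.29, -0.30 and -0.45) and Tpm2 (-0.23, -0.26 and -0.46) shared the sign, while Cnn2 (0.02, 0.13 and -0.00) and the median member (-0.05, -0.00 and 0.02) lay near 0. Myh11 (-0.28, -0.05 and 0.10) and Flna (-0.30, -0.27 and 0.07), which had more counts still, differed in sign between mice. The F2r-high cells of 20GG95:3 lay on 2 plates, so its values mix plate with depth. The smaller plate held fewer of these cells but summed to 18061145 gene counts, against 19919358 on the larger. From the smaller to the larger plate Myh11 went from 6993 to 4618 CPM, Flna from 6395 to 4264 and Myl9 from 3216 to 5182. The values of that mouse, with their signs, thus cannot be read as depth alone. In 20GG79:1 and 20GG79:6, each on 1 plate, a level of Myl9 thus depended on the depth of the cells it was read in. The cause was not tested, and whether duplicate reads were removed is not stated in those sources. Shares of cells with a read are also at their ceiling: in F2r-high cells 12 members were found in at least 99% of cells, and 9 after thinning, while in pericytes the numbers were 9 and 3 and in fibroblasts 9 and 1.

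**Figure D5:**
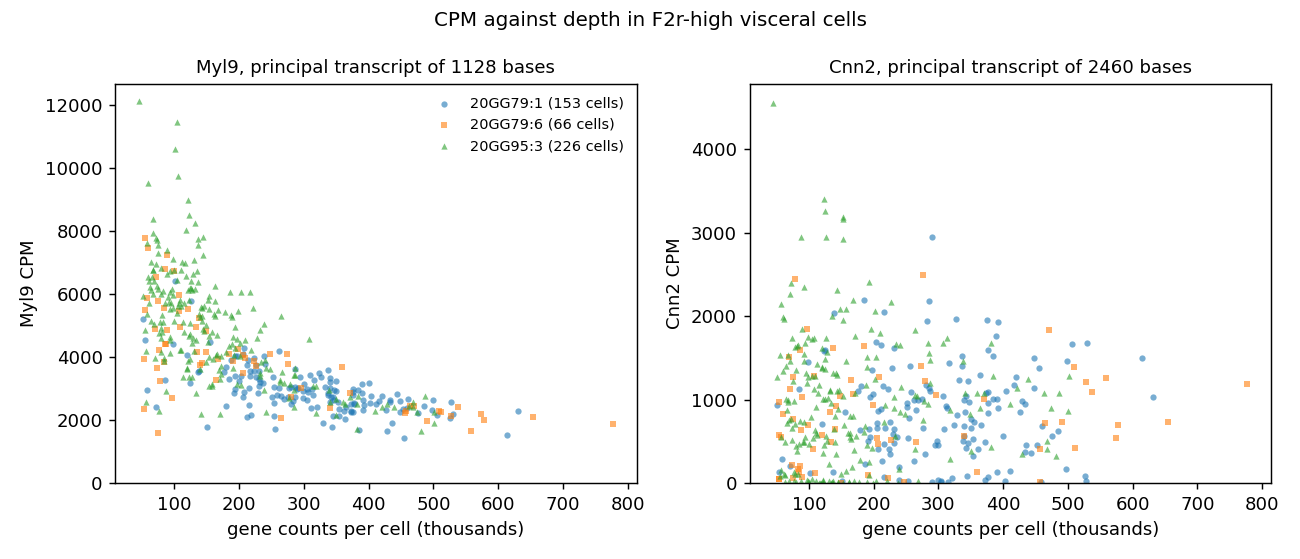
CPM of members against gene counts per cell (in units of 1000) in F2r-high visceral cells, 1 point per cell, coloured by mouse. Myl9 falls with depth in all 3 mice (rank correlations of -0.63, -0.70 and -0.65), whereas Cnn2 does not (0.02, 0.13 and -0.00).

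Other genes of the pathway were tested in the same way. Of a list of 37 genes, among them non-muscle myosins and further LIM and actin-binding proteins, 3 served as markers and were not tested. These were Acta2, Actg2 and Myocd. Between visceral and vascular cells 4 of 34 were higher and 1 lower: Fhl2 (6.13), Svil (3.64), Fhl1 (2.54) and Nexn (2.50) were higher and Ppp1r12c (-1.50) lower on the log2 scale. Fhl2, a LIM protein, stood at 7.74 and 2.25 CPM in vascular cells, and Svil codes for supervillin, which links actin and myosin to membranes. Pericytes against vascular cells gave 1 higher (Fhl2, 5.14) and 2 lower (Palld, -3.07, and Dstn, -1.98) of 33. Pericytes against visceral cells gave 0 higher and 5 lower of 33, among them Svil (-3.37) and Lpp (-1.80). Fibroblasts against visceral cells gave 2 higher, Pdlim1 (2.0) and Tagln2 (1.56), and 4 lower of 33, Lpp (-1.82), Palld (-1.62), Dstn (-1.51) and Tns1 (-1.28).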

How the data were processed

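Single-cell RNA was measured by Smart-Seq2 without molecular identifiers. The deposited table holds raw counts per gene identifier and cell, with no normalization by the authors. Per the submitters' processing notes, reads of builds GRCm38 and mm10 were handled with featureCounts, Subread, Bowtie, Bowtie2 and bcl2fastq, with no version or role given. Symbols came from GENCODE annotation of GRCm38 for 46005 of 46517 identifiers. ERCC spike-ins held 1.88% of counts and were left out. All cells passed the filter of 20000 gene counts and 1000 genes.

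The members, gene lists, tests and alternatives were chosen with earlier results of these data known. Clustering (scanpy 1.11.5, igraph 0.11.9) used 2051 genes, namely cell type markers and variable odd-numbered genes, without the members. With 20 principal components, 15 neighbours and Leiden resolution 1 it gave 19 clusters, named by markers and hence "-like". No doublet caller was run.

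Sums of counts over the cells of each mouse and class were tested by edgeR 4.0.16 (R 4.3.3), using TMM scaling, filterByExpr, the mouse as a block and robust quasi-likelihood. The pairing comes from the labels, since both classes come from the same animal. The Benjamini-Hochberg adjustment ran across all tested genes outside the clustering, with a threshold of 0.05. The mice with both classes determine a fold. The fits left 1 residual degree of freedom, or 2 for pericytes against visceral cells, so p-values come mostly from the spread that all genes share. The SE is the log2 fold change over the square root of F. The Ano1-high and F2r-high sums of 1 mouse were compared without a test, as log2 of CPM plus 1, with a 2-fold rule. All 34 members are named where they passed. Alternatives were DESeq2 1.42.0, other scaling, no filter, no block, other clustering, and leaving out cells, plates or mice. PCR reads are not independent molecules, so shares of cells cover no more than counting.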

Additional observations from a re-analysis of the deposited data

Results flagged for a closer look

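In 3 of 38 groups of 4 or more mice tested, 1 mouse stood far from the others, where chance gives about 1 in 20 groups. All 3 were fibroblast levels in mice that gave 5 fibroblast cells each. Myl6, the essential light chain, stood at 436.8 CPM in 19CB38:5, and the next mouse had 239.8 CPM. Rock1 stood at 274.4 CPM in 19CB38:5 against 37.1 CPM in the next mouse. Actn1, alpha-actinin, stood at 243.4 CPM in 19CB4:5 against 34.6 CPM in the next mouse. These mice had no visceral cells and set no fold change in the tested comparisons.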

How the results depend on the processing

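With the mouse as a block, 7 members passed between visceral and vascular cells, and with no replicate block 0 did, while 12 and 0 passed between pericytes and vascular cells. The block moved the other counts less, from 6 to 5 for pericytes and from 21 to 17 for fibroblasts against visceral cells. Between visceral and vascular cells, DESeq2 called 1 member, a fit with one spread across 5 classes 2 and sums without the larger plate of 20GG95:3 3, and leaving out 1 mouse gave 0 to 3. Between pericytes and vascular cells, RLE size factors gave 19, DESeq2 7, one spread across 5 classes 3, and sums without the smaller or the larger plate 3 and 4, and leaving out 1 mouse gave 1 to 8. Between pericytes and visceral cells, no filter gave 16, DESeq2 2 and one spread across 5 classes 10. Between fibroblasts and visceral cells leaving out 1 mouse gave 5 to 14. Between the visceral subtypes the 4 calls came from the 2-fold rule, whereas the fit over 5 classes was judged by adjusted p. Its count therefore cannot be set beside the 4. Across 9 alternatives the log2 fold change ran from 1.63 to 2.16 for Des and from 2.90 to 3.40 for Sorbs2. For Rock2 it ran from 0.453 to 2.17, and for Ppp1r14a from -1.17 to -0.952. The member share of Ano1-high cells, 5.05%, was 4.958% without cells holding markers of another class, 4.941% in cells of at least 100000 gene counts, 5.282% without the smaller plate and 4.809% without the larger. Thinning cells to 45000 counts left 3 of 9 members in at least 99% of pericytes and 1 of 9 in fibroblasts. With visceral cells limited to the F2r-high subtype, an alternative chosen after seeing the data, 5 members passed against vascular cells, 7 against pericytes and 20 against fibroblasts. Of 50 named member results, 0 changed sign in an alternative, and 7 kept their call in every alternative run, the 5 of Cnn1, Flna, Myh11, Myl9 and Tagln between fibroblasts and visceral cells and those of Cnn1 and Smtn between pericytes and visceral cells. The cause of these changes was not tested. DESeq2, the fit without block and leaving out a mouse were not run for the visceral subtypes, which came from 1 mouse, nor the plate alternatives for fibroblasts, whose comparison does not hold 20GG95:3. Smooth muscle, pericyte and most fibroblast cells came from 1 reporter line, and 2 or 3 mice stand behind each comparison.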

Other observations

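Immune-like cells of 20GG79:6 held RNA of the contractile members, while those of 19CB27:3 did not to the same extent. The 30 immune-like cells of 20GG79:6 had a summed member share of 1.82%, against 0.237% in 20 immune-like cells of 19CB27:3 (line CSPG4dsRED). In the former, Myh11 stood at 1899 CPM with a cell median of 712.3 CPM, Mylk at 1479 CPM, Myl9 at 1593 CPM and Des at 809.4 CPM with a cell median of 115.2 CPM. Their cells ran from 0.183% to 6.72% in member share, so single cells reached the level of visceral muscle and others the level of blood endothelium. The glia-like cells of the same mouse had 0.905% and its blood endothelium-like cells 0.595%. The median depth of the immune-like cells was 394492 gene counts in 20GG79:6 and 167185 in 19CB27:3. F2r-high cells of 20GG79:6 had a median of 157260. Acta2 and Actg2 together held 0.261% of gene counts in the immune-like cells of 20GG79:6, against 0.00761% in those of 19CB27:3. No doublet caller was run, and whether these wells also held muscle RNA from another cell was not tested. A comparison of 2 mice of different lines has no replicate and carries no test.

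Among further genes of the pathway, the Ano1-high cells of 20GG95:3 had at least 2-fold more Myh10 (1.42), Pxn (1.31) and Ppp1r12c (1.09) than the F2r-high cells, as log2 fold changes with no test. They had at least 2-fold less Pdlim1 (-3.04), Mrtfb (-2.08), Prkg1 (-1.80) and Fhl2 (-1.62). These were 3 higher and 4 lower of 34 compared, where 13.7% and 17.8% of all genes passed the same rule. Myh10 codes for a non-muscle myosin heavy chain, Mrtfb for a partner of Srf, and Prkg1 for the kinase that answers to cyclic GMP.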
